A study of Mus musculus with 18 samples.

Results

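Obstructed mouse kidneys that lacked Myc in tubular cells were compared with obstructed kidneys that lacked Twist or Snail in endothelial cells. The comparison uses 9 of the 18 libraries of the series, chosen by genotype alone: 3 with the tubular Myc knockout against 6 with an endothelial knockout, taken as 1 group (3 Twist and 3 Snail). RNA of whole kidney was taken at an age of 12 weeks in the endothelial lines and of 11 to 12 weeks in the Myc line. Every one of the 9 kidneys came from unilateral ureteral obstruction (UUO), in which one ureter is tied and the kidney above it is injured and scars. In the Myc line (+ FF, GGT-Cre;Myc) a gamma-glutamyl transferase promoter drives Cre in tubular cells and both Myc alleles are floxed. In the endothelial lines (+ FF, Cdh5-CreERT2;Twist and + FF, Cdh5-CreERT2;Snail) a tamoxifen-inducible Cre acts in endothelial cells. The labelled strain is mixed in every line: the Snail and Myc lines carry C57BL6 and Balb/c, and the Twist line also 129sv. For context, 3 wild-type (WT) UUO kidneys are shown, all of the Twist line: 2 Cre-positive without floxed alleles and 1 Cre-negative with them. No control kidney of the Myc line was analysed here, so the knockout, the Cre driver and the line's own genetic background cannot be told apart. Replicate numbers here follow the sample records. Whether each kidney is from a separate animal is not labelled, and p-values then reflect only the spread between libraries.

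Myc is a transcription factor that binds DNA with its partner Max, often at the E-box letters CACGTG, and is known for driving ribosome production, nucleotide synthesis, glycolysis and the cell cycle. Proximal tubule cells, which carry gamma-glutamyl transferase on their brush border, normally live on fatty acid oxidation and shift toward glycolysis when injured. Twist and Snail are transcription factors of the change of epithelial or endothelial cells toward a mesenchymal state. The comparison asks what the tubular knockout shows that the endothelial knockouts do not, in a study of the vessel change, oxygen shortage and tubular Myc in kidney scarring. In RNA of a whole kidney, fewer cells of a type and less RNA per cell cannot be told apart.

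Total counts ran from 52.6 to 73.9 M per library over the 9 libraries and overlapped between the groups. Myc cKO UUO replicate 3 stood apart from the other 8 libraries: on the first principal component of the 9, which held 22.6% of the variance, it scored 95.5 and the others -44.0 to 5.49. The share of counts from mitochondrial ribosomal RNA (mt-Rnr1 plus mt-Rnr2) was 25.4%, 32.1% and 34.9% in the Myc knockouts and 23.7% to 29.9% in the endothelial knockouts. The difference of 4.95 percentage points did not pass (exact permutation test over 84 splits, two-sided, p = 0.0952). By Xist and Ddx3y counts each of the 3 groups held kidneys of both sexes.

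The 3 Myc knockout libraries also differed from the other 6 in how counts followed the base composition of the transcripts. Genes were binned by the GC content of their longest transcript, and each library's median log2 deviation from the mean of the 12 obstructed kidneys was taken in each bin. The deviation of genes with at least 60% GC minus that of genes under 40% GC was -0.36, -0.47 and -0.33 in the Myc knockouts. It ran from -0.01 to 0.24, with a median of 0.17, in the endothelial knockouts and from 0.04 to 0.09 in WT UUO. The Myc and endothelial values did not overlap, and the difference of -0.54 had the smallest p that 84 splits allow (exact permutation test, two-sided, p = 0.0238), on a measure chosen after the data were seen. The healthy kidneys of the Twist line, at -0.31 to -0.65, were below 0 as well.

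**Figure D1:**
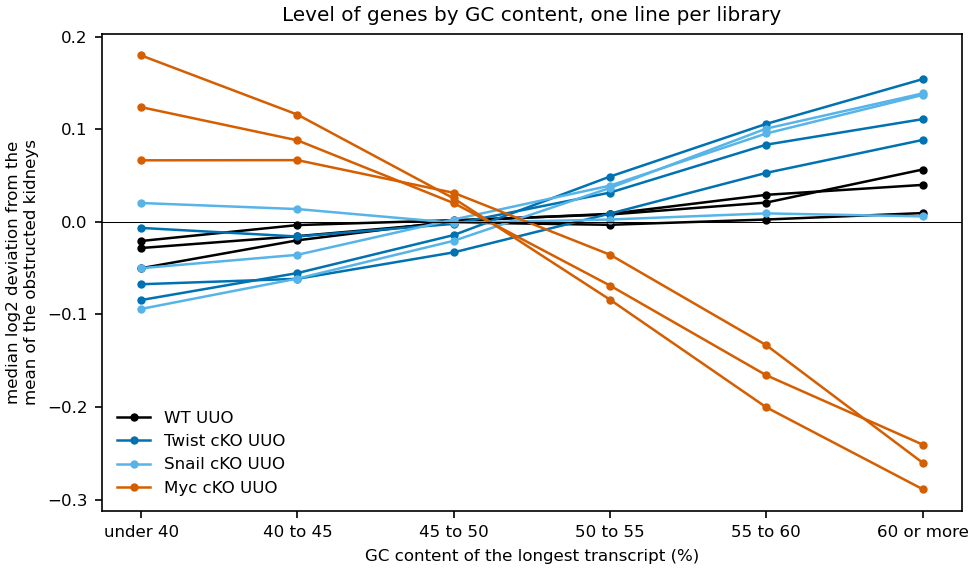
Median log2 deviation of gene levels (y) in 6 bins of transcript GC content in percent (x), 1 line per obstructed kidney library, coloured by group. The 3 Myc cKO UUO lines fall from above 0 in GC-poor genes to -0.24 to -0.29 in genes of 60% GC or more, below all 9 other lines in that bin.

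A gene was called when edgeR's quasi-likelihood test gave a Benjamini-Hochberg adjusted p under 0.05. Of 21050 genes tested, 1070 were called between the Myc and the pooled endothelial knockouts (5.08%), 220 higher (1.05%) and 850 lower (4.04%) in the Myc knockouts. Most changes were small: the median size of a called change was 0.46 on the log2 scale, and 89 genes changed at least 2-fold, 50 of them higher and 39 lower. The median GC content was 57.3% in genes called lower, 42.7% in genes called higher and 49.4% in all tested genes. Of 845 genes called lower with a GC value, 818 lay above that overall median, and of 216 called higher 201 lay below it. Across 14635 genes, which share libraries and are not independent, the log2 fold change had a Spearman rho of -0.56 with GC content, against 0.07 for Twist against Snail.

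Calls are therefore also given from a fit with a GC offset, a smooth correction per library for transcript GC content that was added after the data were seen. With it 29 genes were called (0.138%), 8 higher (0.038%) and 21 lower (0.0998%), 25 of them among the 1070. At an unadjusted p under 0.05 there were 4099 genes without and 2481 with the offset. The offset also takes away any change in the tissue that follows GC content, and which part of the slope came from the tissue was not tested. The count of 1070 rested on several libraries: it was 452 without Myc cKO UUO replicate 2, 651 without its replicate 3, 646 and 663 without Snail cKO UUO replicates 1 and 3 and 661 without Twist cKO UUO replicate 1. With the offset it ran from 7 (without Myc cKO UUO replicate 3) to 34 (without its replicate 1).

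Myc, the targeted gene, was present at 18.8, 19.8 and 10.8 CPM (counts scaled to library size, with TMM factors) in the Myc knockouts. In the endothelial knockouts it ran from 15.3 to 29.2 CPM with a median of 20.8. The groups overlapped, with replicate 3 of the Myc knockouts lowest, and Myc did not pass (log2 fold change -0.38 ± 0.20 SE, adjusted p = 0.31). WT UUO kidneys held 21.8 to 23.8 CPM, and the healthy ones 4.08 to 5.15. The Cre acts in tubular cells and other cells of the kidney keep Myc, so the whole-kidney level does not check the knockout closely. Ggt1, which encodes gamma-glutamyl transferase, was at 141, 86.5 and 185 CPM against 86.3 to 234, also overlapping (log2 fold change -0.23 ± 0.35 SE, adjusted p = 0.78).

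Among the endothelial targets, Twist1 was lowest in its own knockout. It lay at 0.307 to 0.596 CPM in the 3 Twist knockouts, 1.33 to 1.85 in the Snail knockouts and 0.851 to 1.22 in the Myc knockouts. The difference between Twist and Snail knockouts did not pass (log2 fold change -1.86, adjusted p = 0.264). Snai1 lay at 1.801 to 2.16 CPM in the Twist, 1.69 to 2.27 in the Snail and 0.478 to 1.92 in the Myc knockouts, overlapping between its own and the Twist knockout. Cdh5, the endothelial junction gene that drives the endothelial Cre, was at 44.76, 44.96 and 41.7 CPM in the Myc knockouts against 44.7 to 55.8 (log2 fold change -0.22 ± 0.12 SE, adjusted p = 0.32). Neither Twist1, Snai1 nor Cdh5 passed in the pooled comparison.

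Next to Myc on the same strand lies Pvt1, a long non-coding RNA gene (chr15:62037986-62378096 in GRCm38, with Myc at chr15:61985391-61990374). Pvt1 was at 10.8, 7.12 and 6.43 CPM in the 3 Myc knockouts and at 2.90 to 4.52, with a median of 3.81, in the endothelial knockouts. The groups did not overlap, which was a condition for naming a gene among the largest changes. WT UUO kidneys, at 3.54 to 5.69, lay below the Myc knockouts and overlapped the endothelial ones. Pvt1 rose by 1.10 ± 0.25 (log2, SE, adjusted p = 0.0201). Its call was lost with the GC offset (log2 fold change 1.03, adjusted p = 0.125) and without Myc cKO UUO replicate 1, its highest library (0.84, adjusted p = 0.0977).

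**Figure D2:**
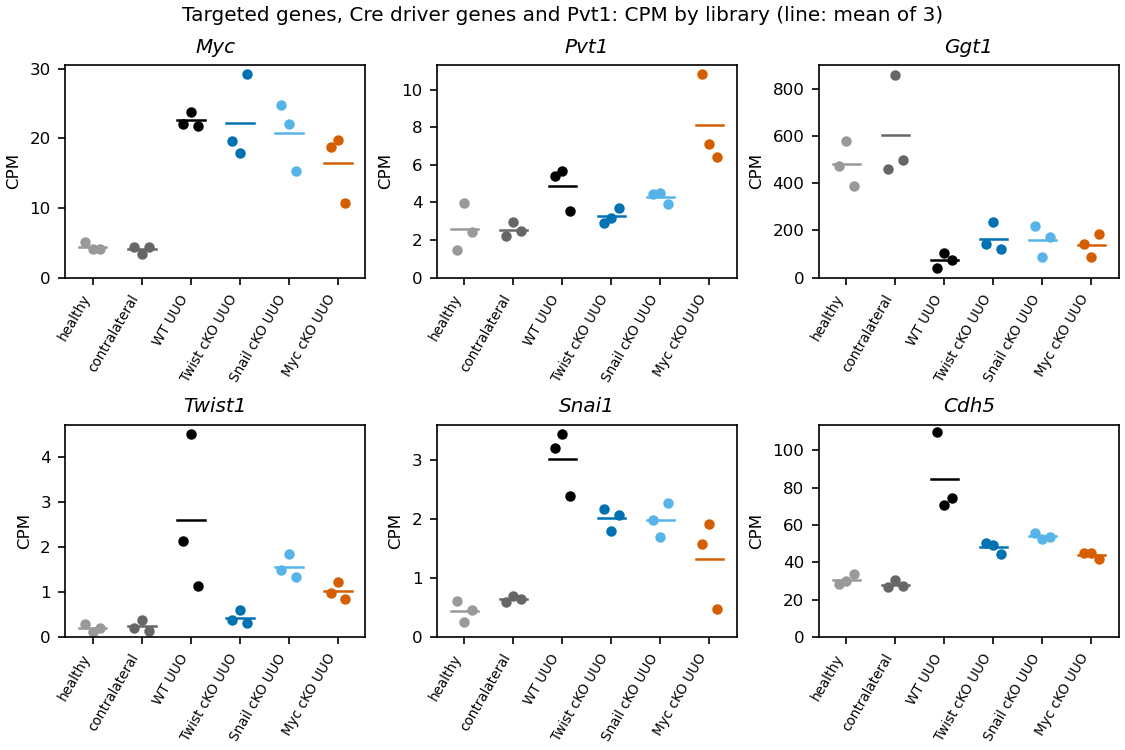
CPM (y, from 0) of the targeted genes, the Cre driver genes and Pvt1 in each of the 18 libraries (points) by group (x), with the mean of 3 as a line. Pvt1 in the 3 Myc cKO UUO kidneys lies above every other library, while Myc overlaps between the obstructed groups.

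The largest named falls lay in a stretch of chromosome 7 that holds interferon-inducible genes. It is not a single cluster: Gvin1 starts 1893 kb from Trim5, with other genes such as Smpd1 and Apbb1 between them. Trim5, Trim12a and Trim30d encode TRIM proteins, antiviral E3 ubiquitin ligases, and Gvin1 encodes a very large interferon-inducible GTPase. Trim12a (chr7:104299894-104315466, minus strand) gave 0.0416, 0.0246 and 0 CPM in the Myc knockouts, 5 counts in all. The endothelial knockouts gave 8.45 to 19.8 CPM with a median of 15.9. The summed level was 641-fold lower in the Myc knockouts (95% exact counting interval 275 to 1975, counting error only; edgeR adjusted p = 0.00466, and 0.0263 with the GC offset).

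Trim5 (chr7:104263386-104288094, minus strand) gave 0.0832, 0.0737 and 0.104 CPM against 2.32 to 5.59 with a median of 4.83. It was 50.3-fold lower in summed counts (interval 32.1 to 83.7; adjusted p = 0.00189, and 0.0103 with the offset). Gvin1 (chr7:106156556-106215326, minus strand) gave 0.0277, 0.0982 and 0.0149 CPM against 1.75 to 5.51 with a median of 4.97. Its summed level was 86.4-fold lower (interval 48.2 to 173; adjusted p = 0.00486, and 0.0275 with the offset). In each of these genes the 3 Myc knockouts were at or near 0 and none overlapped the other 6, a separation seen in 11.9% of all genes tested (4.32% with the Myc knockouts higher and 7.62% lower). That lack of overlap was required by the naming rule, so it adds nothing to the calls.

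Their neighbours did not all follow. Trim30d was at 1.55, 1.17 and 0.642 CPM against 3.13 to 11.2, a log2 fold change of -2.67 ± 0.50 (adjusted p = 0.0074, and 0.0335 with the offset). The pseudogenes Gm1966 and Gm21884, close to Gvin1 and chosen for mention after their values were seen, had log2 fold changes of -5.74 and -5.25 (adjusted p = 0.00115 and 0.00167, and 0.00262 and 0.00597 with the offset). Trim12c, a close relative of Trim12a, went the other way: 29.7, 31.4 and 24.2 CPM against 13.4 to 19.95, a log2 fold change of 0.81 ± 0.16 (adjusted p = 0.00837, and 0.125 with the offset). Trim30a, Trim6 and Trim34a overlapped between the groups, with log2 fold changes of -0.06, 0.42 and -0.37. Gm15133, in the same stretch, was called lower (-3.50, adjusted p = 0.0107, and 0.0656 with the offset). Trim34b, Trim30c and Trim30b had log2 fold changes of 1.24, 1.95 and 0.34 that did not pass (adjusted p = 0.0543, 0.085 and 0.717). Within 3 Mb of Trim5, 11 of 71 tested genes were called (15.5%, beside 5.08% of all genes), and 5 with the GC offset (beside 0.138% of all genes). The window was centred on a gene picked for its fall, so nothing is read from that share. With the offset the call held in 7 of 9 fits that each left out a library for Trim5, 3 of 9 for Trim12a and Gvin1 and 2 of 9 for Trim30d. These genes have near-identical copies, so how counts were split between copies is uncertain.

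The same near-absence was seen outside the Myc line. Trim12a was at 4.35, 0.0205 and 0.0155 CPM in the 3 healthy kidneys of the Twist line, and Gvin1 at 0.814, 0.0205 and 0 CPM. In both genes healthy replicates 2 and 3 were as low as the Myc knockouts. The contralateral kidneys held 4.70 to 12.1 CPM of Trim12a and the WT UUO kidneys 9.40 to 18.8. In the general interferon-stimulated list 0 of 17 members were called (beside 5.08% of all genes), so a list of this size can hold no call without standing apart. Of its members 12 had a positive log2 fold change. Its median was 0.17, with 0.32 against the Twist and 0.06 against the Snail knockouts.

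**Figure D3:**
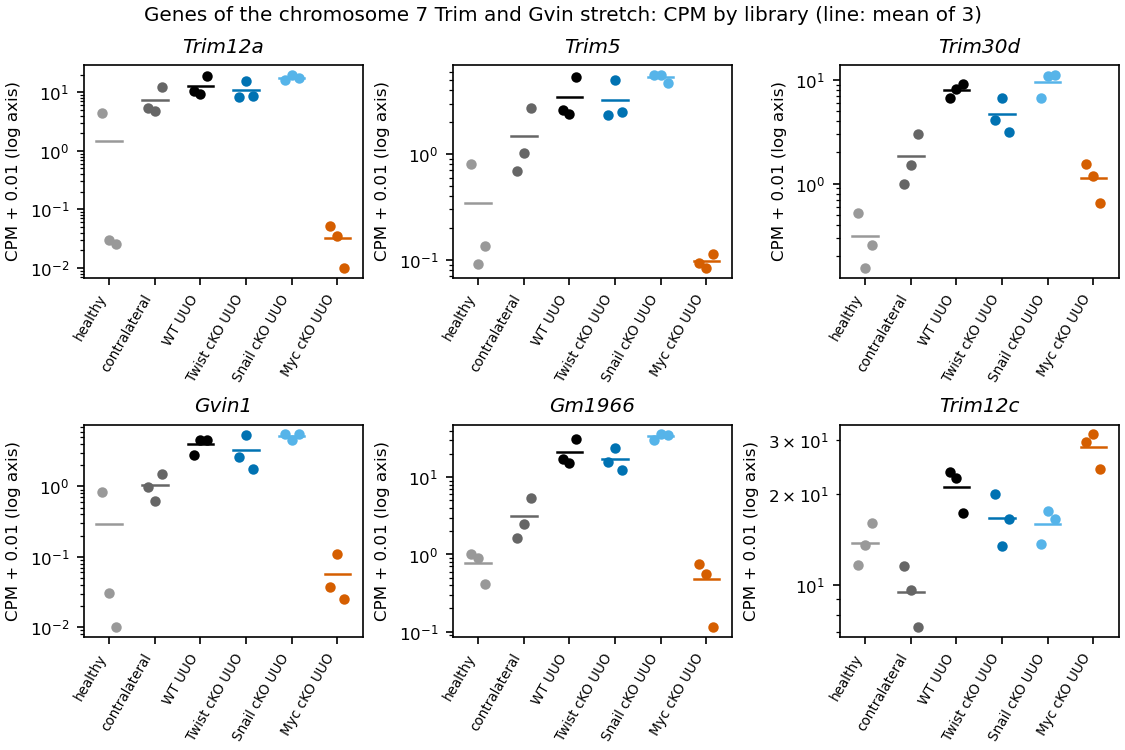
CPM + 0.01 on a log axis (y) of 6 genes from the chromosome 7 stretch in all 18 libraries (points) by group (x), with the mean of 3 as a line. The 3 Myc cKO UUO kidneys lie below every other obstructed kidney for 5 of the genes and above them for Trim12c, and healthy replicates 2 and 3 are as low as the Myc knockouts for Trim12a and Gvin1.

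Outside that stretch, the largest fall among genes that are not predicted genes or pseudogenes was in Lama3, which encodes the alpha chain of laminin-332, a basement membrane protein of epithelia. Lama3 was at 24.1, 9.85 and 10.1 CPM in the Myc knockouts and at 42.6 to 79.8, with a median of 61.0, in the endothelial knockouts. WT UUO kidneys held 49.1 to 74.2 and healthy ones 40.6 to 72.4, so the 3 Myc knockouts lay below all of these libraries. The log2 fold change was -2.05 ± 0.38 (adjusted p = 0.0070, and 0.0495 with the GC offset). Without the offset the call held in 9 of 9 fits that each left out a library, and with it in 1 of 9. Against the Twist and the Snail knockouts alone the log2 fold changes were -2.09 and -2.01 (adjusted p = 0.0168 and 0.0244).

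Il3ra, a receptor subunit for interleukin 3, was at 1.11, 0.896 and 0.582 CPM against 2.49 to 4.40, a log2 fold change of -1.999 ± 0.29 (adjusted p = 0.00224, and 0.0256 with the offset). Atp9a, a flippase of endosome membranes, was at 31.4, 26.7 and 31.8 CPM against 62.5 to 83.0, a log2 fold change of -1.26 ± 0.16 (adjusted p = 0.00144, and 0.0236 with the offset). Neither gene overlapped between the groups, as the naming rule required, and for both the WT UUO kidneys lay above the Myc knockouts as well. With the offset the calls held in 5 and 4 of 9 fits that each left out a library. The other named falls lost their calls with the offset. Each is given with its log2 fold change and its adjusted p without and with the offset. They were Fst, the activin inhibitor follistatin (-1.47, adjusted p 0.03 to 0.125), Wnt7b, a Wnt ligand of the collecting duct (-1.40, 0.0435 to 0.268), Kank4 (-1.20, 0.0425 to 0.197), Fam171a2 (-1.17, 0.00167 to 0.0517) and the tight junction gene Cldn6 (-1.15, 0.00987 to 0.125). Fst, Wnt7b and Kank4 also lost their calls without Myc cKO UUO replicate 3 (adjusted p = 0.116, 0.135 and 0.135) and kept them in 4, 3 and 2 of 9 such fits.

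Of the 12 largest rises, 1 kept its call with the offset. Tpm3-rs7, a copy of the tropomyosin gene Tpm3, was at 20.2, 18.03 and 41.0 CPM in the Myc knockouts and at 0.365 to 0.613 in the endothelial knockouts. The summed level was 48.1-fold higher (counting interval 42.3 to 54.7; adjusted p = 0.00821, and 0.0576 with the offset). It was also high in single kidneys of other groups: 32.3 CPM in WT UUO replicate 1 against 1.02 and 0.513 in the other 2, and 12.2 and 7.94 in 2 contralateral kidneys. Tpm3 itself was lower in the Myc knockouts (log2 fold change -0.67, adjusted p = 0.0138, and 0.0876 with the offset), at 101, 86.9 and 59.8 CPM against 122 to 139. Copy and parent together came to 121, 105 and 101 CPM against 122 to 139, and the copy held 16.6%, 17.2% and 40.6% of that sum in the Myc knockouts and 0.299% to 0.472% in the endothelial ones. How counts were split between parent and copy is uncertain.

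Acp1, a low molecular weight phosphotyrosine phosphatase, was the named rise whose call held with the offset. It was at 18.5, 19.5 and 22.8 CPM in the Myc knockouts and at 6.25 to 10.9, with a median of 8.87, in the endothelial knockouts. The log2 fold change was 1.23 ± 0.18 (adjusted p = 0.00245, and 0.025 with the offset, where the call held in 5 of 9 fits that each left out a library). WT UUO kidneys were at 17.7 to 19.95 CPM, level with the Myc knockouts (log2 fold change 0.13, adjusted p = 0.751). The WT UUO kidneys thus did not overlap the endothelial knockouts either.

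Slc13a1, the sodium sulfate cotransporter of the proximal tubule brush border, was at 801, 703 and 873 CPM against 349 to 528 with a median of 420. Folh1, a brush border peptidase that frees glutamate, was at 99.0, 133 and 171 CPM against 42.3 to 88.5. Neither overlapped between the groups, as the naming rule required. The log2 fold changes were 0.89 ± 0.22 and 1.02 ± 0.24 (adjusted p = 0.0285 and 0.0221). With the offset the adjusted p was 0.187 and 0.181. Without Myc cKO UUO replicate 3 both calls were lost (adjusted p = 0.0992 and 0.114), and of 9 such fits 3 and 7 kept them.

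Further rises were Ptpn22, a phosphatase of immune cells, and Syt14, a synaptotagmin. Their log2 fold changes were 1.60 ± 0.36 and 1.28 ± 0.27 (adjusted p = 0.019 and 0.0142, and 0.125 and 0.116 with the offset). Cd59a, a complement inhibitor, Cdc37l1, a co-chaperone, and Gab3, an adaptor protein, rose by 0.88, 0.74 and 0.70 on the log2 scale and lost their calls with the offset (adjusted p = 0.181, 0.229 and 0.16). The calls of Ptpn22, Syt14, Cd59a, Cdc37l1 and Gab3 were lost without Myc cKO UUO replicate 3 (adjusted p = 0.145, 0.0631, 0.147, 0.187 and 0.131). Cd59a and Cdc37l1 were called in 3 of 9 such fits each. Ptpn22 and Cdc37l1 were highest in Myc cKO UUO replicate 3, at 68.3 and 104 CPM, and without that library their log2 fold changes were 1.03 and 0.25.

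**Figure D4:**
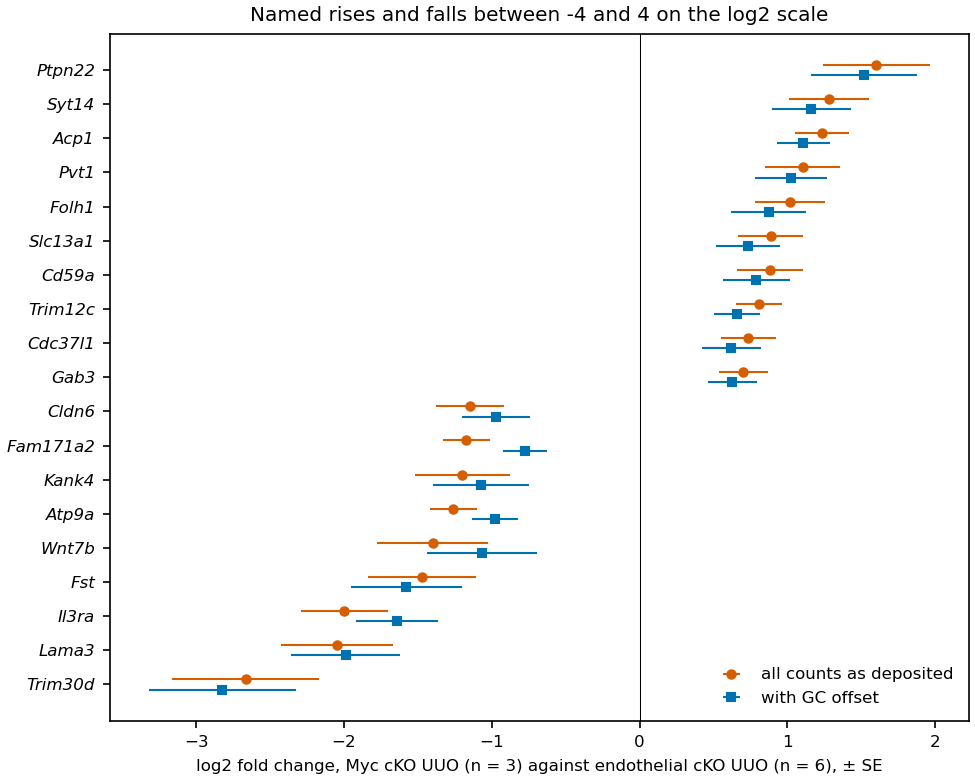
Log2 fold change (x) with its SE for the rises and falls named here within 4 log2 units of 0 (y), Myc cKO UUO (n = 3) against endothelial cKO UUO (n = 6), from counts as deposited (circles) and with the GC offset (squares). The sign of each gene is the same in both fits, and Fam171a2 moves most among the falls, from -1.17 to -0.78.

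Among the 29 genes called with the GC offset were several of broad cellular roles whose changes were under 2-fold. Cul7, a cullin of a ubiquitin ligase, was at 30.4, 29.4 and 28.3 CPM against 45.8 to 53.6 (log2 fold change -0.76, and -0.42 with the offset, adjusted p = 0.0256). Snd1, a nuclease of RNA silencing and splicing complexes, was at 62.6, 61.2 and 55.9 CPM against 76.1 to 86.6 (-0.46, and -0.47 with the offset, adjusted p = 0.0114). Dag1, the matrix receptor dystroglycan, was at 121, 127 and 132 CPM against 173 to 202 (-0.55, and -0.45 with the offset, adjusted p = 0.0389). In each of these 3 genes the groups did not overlap. The same held for 25 of the 29 genes called with the offset and for 11.9% of all genes tested. It adds nothing to the calls.

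Col4a5, a basement membrane collagen chain, lay at 51.0, 54.4 and 53.1 CPM against 67.4 to 74.1 and fell by 0.42 on the log2 scale (-0.37 with the offset, adjusted p = 0.0256). Il17rd, an inhibitor of fibroblast growth factor signalling, the Wnt receptor Fzd8, the deubiquitinase Usp22, the splicing factor Sf3a1 and the choline transporter gene Slc44a2 fell by 0.50, 0.79, 0.46, 0.42 and 0.47. Of the 9 fits with the offset that each left out a library, the call held in 7 for Snd1, 3 for Cul7, Col4a5, Il17rd and Usp22, 2 for Fzd8, 1 for Dag1 and Sf3a1 and 0 for Slc44a2. Gpr17, a G protein-coupled receptor, rose by 0.55 (adjusted p = 0.00751, and 0.0113 with the offset, held in 8 of those 9 fits), at 8.41, 7.42 and 8.48 CPM against 4.72 to 6.40. Mapkapk5, Rab24, Akap8l and Fkbp2 were called higher with the offset alone; as deposited they overlapped between the groups, with log2 fold changes of 0.09 to 0.23, and their calls held in 0 to 2 of those fits.

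The counts for Myc's best-known programmes stand beside shares over all genes tested of 5.08% called, 1.05% higher and 4.04% lower. The lists of genes behind these counts are those in the processing summary, and all members were in the table. In the Myc network list (Myc relatives and the Max, Mxd and Mlx partners), 0 of 14 members were called and the median log2 fold change was -0.01, beside 0.01 over all genes tested. In ribosome biogenesis, 6 of 30 were called lower and 0 higher, with a median of -0.03. Bop1, a factor of large-subunit maturation, was at 14.3, 11.9 and 12.9 CPM against 18.6 to 19.7 (log2 fold change -0.55 ± 0.08, adjusted p = 0.00212). Polr1a, the largest subunit of RNA polymerase I, fell by 0.31 (adjusted p = 0.00851) and Nop2, a methyltransferase of ribosomal RNA, by 0.40 (adjusted p = 0.0186). With the GC offset these adjusted p-values were 0.22, 0.112 and 0.384, and 0 of 30 were called. Nop2 also lost its call without Myc cKO UUO replicate 2 or 3 (adjusted p = 0.0594 and 0.0855).

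In nucleotide and polyamine synthesis, 4 of 22 were called lower and 0 higher (4.04% and 1.05% of all genes), with a median of 0.05. Cad, which starts pyrimidine synthesis, was at 19.1, 16.9 and 11.5 CPM against 22.9 to 29.8 (-0.73 ± 0.15, adjusted p = 0.013). Gart and Impdh1 of purine synthesis fell by 0.45 and 0.62 (adjusted p = 0.00524 and 0.0171). None of the 22 was called with the offset (0.221, 0.106 and 0.427 for these 3). In the cell cycle list 1 of 20 was called, the helicase subunit Mcm2 (-0.45, adjusted p = 0.0276, and 0.181 with the offset), and the list's median was 0.25. Without Myc cKO UUO replicate 3 the adjusted p was 0.0533 for Cad, 0.0794 for Impdh1 and 0.12 for Mcm2.

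The E-box of Myc was looked up in RefSeq promoters (GRCm38.p6, from 250 bases before to 50 after the start of each gene). The letters CACGTG, which read the same on both strands, were in 9.24% of 12638 promoters of tested genes, in 6 of 26 ribosome biogenesis promoters and in 5 of 19 of nucleotide and polyamine synthesis. Stretches wholly before the gene start are shown for 4 of these genes because they carry the E-box in capitals in genes of programmes that Myc is known to drive. Nop2 (chr6:125131793-125131858, plus strand), Paics (chr5:76951069-76951134, plus strand), Impdh2 (chr9:108560296-108560361, plus strand) and Tyms (chr5:30073651-30073716, minus strand) are given in gene direction.
Nop2: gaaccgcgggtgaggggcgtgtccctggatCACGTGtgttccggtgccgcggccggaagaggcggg
Paics: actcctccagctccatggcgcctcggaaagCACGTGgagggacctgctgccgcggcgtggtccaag
Impdh2: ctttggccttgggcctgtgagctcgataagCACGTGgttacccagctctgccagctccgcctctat
Tyms: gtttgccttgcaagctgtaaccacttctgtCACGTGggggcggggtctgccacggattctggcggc
Of these 4, Nop2 was called lower without the GC offset (adjusted p = 0.0186) and not with it (adjusted p = 0.384). Its call was also lost without Myc cKO UUO replicate 2 or 3. Paics, Impdh2 and Tyms had log2 fold changes of 0.13, -0.22 and 0.18 that did not pass (adjusted p = 0.487, 0.463 and 0.591). Rrn3 of the ribosome list and Sms of the nucleotide and polyamine list had such stretches too, not shown. Their log2 fold changes of -0.05 and 0.17 did not pass (adjusted p = 0.740 and 0.543). Tested genes with the letters had a median log2 fold change of -0.01 and those without of 0.00. Within ribosome biogenesis the medians were 0.03 with and -0.03 without the letters. Within nucleotide and polyamine synthesis they were 0.13 and 0.05. A match is a description of the sequence, not a site that was shown to be bound.

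Over all genes 5.08% were called, so lists of this size can hold no call without standing apart from other genes. In fuel metabolism, no gene was called in glycolysis (0 of 18, median -0.17), fatty acid oxidation (0 of 20, median 0.17), the citric acid cycle (0 of 18, 0.18), nuclear oxidative phosphorylation (0 of 20, 0.25) or gluconeogenesis and fructose use (0 of 10, 0.57). Hk1, the hexokinase that traps glucose, came nearest in glycolysis, at 56.1, 74.0 and 82.1 CPM against 82.2 to 125 (-0.53 ± 0.17, adjusted p = 0.0879). Gatm, a creatine synthesis enzyme of the amino acid list, was at 70.6, 106 and 190 CPM against 29.1 to 88.1 (1.08 ± 0.32, adjusted p = 0.0665). The mitochondrially encoded list had 1 of 13 called higher, mt-Nd2 of complex I (0.80 ± 0.21, adjusted p = 0.041, 0.249 with the offset and 0.204 without Myc cKO UUO replicate 3), and a median of 0.64.

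These medians moved with 1 library. Without Myc cKO UUO replicate 3 the median was 0.06 in gluconeogenesis, -0.14 in fatty acid oxidation, 0.02 in the citric acid cycle, 0.06 in nuclear oxidative phosphorylation and 0.28 in the mitochondrially encoded genes. In glycolysis it was -0.32, farther from 0, and Pfkm, a phosphofructokinase subunit, was then called lower (log2 fold change -0.58, adjusted p = 0.0472). That call came from a fit without the GC offset. With the offset and all 9 libraries the glycolysis median was -0.06. G6pc, the last step of glucose release, shows the spread: 33.1, 55.3 and 275 CPM in the Myc knockouts against 12.1 to 102. Ppara, the fatty acid oxidation regulator, was at 19.0, 33.7 and 74.8 CPM against 21.7 to 39.6. In both genes replicate 3 was the highest of the 9 libraries and the other 2 Myc knockouts lay within or below the endothelial range.

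Markers of kidney cell types overlapped between the groups for most lists. The summed level of 20 proximal tubule genes was 4702 to 7932 CPM in the Myc and 2893 to 8781 in the endothelial knockouts, with 0 called and a median of 0.31 (-0.03 without replicate 3). Loop and distal tubule (11 genes), collecting duct (12) and tubular injury genes (19) had no call, with medians of -0.02, 0.01 and -0.09. Without replicate 3 the loop and collecting duct medians were -0.51 and -0.25, and Aqp1, a proximal tubule water channel, was called lower (log2 fold change -0.75, adjusted p = 0.0476). That fit had no GC offset. Aqp1 was not called with all 9 libraries (adjusted p = 0.307), nor in any fit with the offset that left out a library. The loop median was -0.43 against the Twist and 0.42 against the Snail knockouts. Havcr1, the injury marker KIM-1, was at 525, 142 and 350 CPM against 265 to 448. In the podocyte list 2 of 8 were called lower (beside 4.04% of all genes), among them Synpo, an actin-binding protein of foot processes (log2 fold change -0.51, adjusted p = 0.0458, 0.594 with the offset and 0.187 without Myc cKO UUO replicate 3).

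Some endothelial markers were lower in the Myc knockouts, while the other group carried the endothelial deletions. Of 21 genes, 3 were called lower and 0 higher (beside 4.04% and 1.05% of all genes), with a median of -0.21 and a summed level of 584 to 650 CPM against 626 to 692. Eng, the endothelial TGF-beta co-receptor endoglin, was at 58.7, 55.8 and 57.9 CPM against 76.1 to 94.0 (-0.54 ± 0.07, adjusted p = 0.00167). Plvap, of the fenestral diaphragm, fell by 0.52 and the transcription factor gene Sox18 by 0.51 (adjusted p = 0.00485 and 0.0427). These 3 transcripts are GC-rich (57.4%, 60.6% and 60.9%). With the GC offset none was called (adjusted p = 0.227, 0.494 and 0.781) and the list's median was -0.06. Sox18 lost its call in each of the 9 fits that left out a library (adjusted p up to 0.155).

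With all 9 libraries most scar genes had negative log2 fold changes, with wide spread. List medians were farther below 0 against the Snail than against the Twist knockouts. They were -0.54 and -0.11 for matrix and -0.42 and -0.01 for myofibroblast and pericyte genes. In the matrix list 23 of 25 log2 fold changes were negative, 2 were called lower (beside 4.04% of all genes) and the median was -0.30 (-0.07 without replicate 3). Col4a2 of basement membrane was at 479, 455 and 413 CPM against 563 to 721 (-0.52 ± 0.12, adjusted p = 0.0195) and the cross-linking enzyme gene Loxl1 fell by 0.63 (adjusted p = 0.0205), with 0.627 and 0.463 under the offset and 0.081 and 0.0916 without Myc cKO UUO replicate 3. Col1a1, the main chain of scar collagen, was at 569, 249 and 97.5 CPM against 288 to 768, overlapping and not called (adjusted p = 0.482). Of 17 myofibroblast and pericyte genes, 11 had negative log2 fold changes. The list's median was -0.23, and it turned sign to 0.07 without replicate 3. In this list 3 genes were called lower (beside 4.04% of all genes), Notch3, Cspg4 and Pdgfrb. Their log2 fold changes were -0.58, -0.62 and -0.52 (adjusted p = 0.00389, 0.0273 and 0.0431, and 0.301, 0.408 and 0.373 with the offset). Without replicate 3 Notch3 was called and Cspg4 and Pdgfrb were not (adjusted p = 0.11 and 0.166). Acta2, smooth muscle actin, was at 160, 42.5 and 30.9 CPM against 43.0 to 92.0 (adjusted p = 0.848).

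Immune and oxygen-related lists held 1 called gene, beside a share of 5.08% over all genes. Macrophage (16 genes), neutrophil (6 tested of 7), T cell (11), B cell (8) and hypoxia lists (21 tested of 22) had 0 called, and the chemokine and cytokine list had 1 of 19, Tgfb1 (-0.61 ± 0.17, adjusted p = 0.0453, 0.223 with the offset and 0.153 without Myc cKO UUO replicate 3). The neutrophil median of 1.79 turned on replicate 3 (-0.06 without it): S100a8 was at 0.777, 1.60 and 11.1 CPM against 0.526 to 2.06. Vegfa, the oxygen-regulated vessel growth factor, was at 64.3, 70.6 and 92.2 CPM against 56.9 to 79.2 (0.06 ± 0.14, adjusted p = 0.868). Hif1a, a transcription factor subunit stabilised at low oxygen, was at 107, 130 and 139 CPM against 111 to 129 (0.07 ± 0.16, adjusted p = 0.875). In the stress list 1 of 16 was called higher, the serine synthesis gene Psat1 (1.13 ± 0.31, adjusted p = 0.0469, 0.181 with the offset and 0.412 without replicate 3). Across the 31 lists, 2 held a gene called higher, 8 a gene called lower and 21 none, and with the GC offset no list held a called gene.

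Tissue beside the kidney proper was sampled unevenly. The summed level of 8 adipocyte genes was 32.1 to 194 CPM in the Myc and 27.7 to 162 in the endothelial knockouts, and that of 9 urothelial genes 2.18 to 69.2 against 8.20 to 81.2. Both ranges overlapped, no member was called, and their part in the results was not tested.

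**Figure D5:**
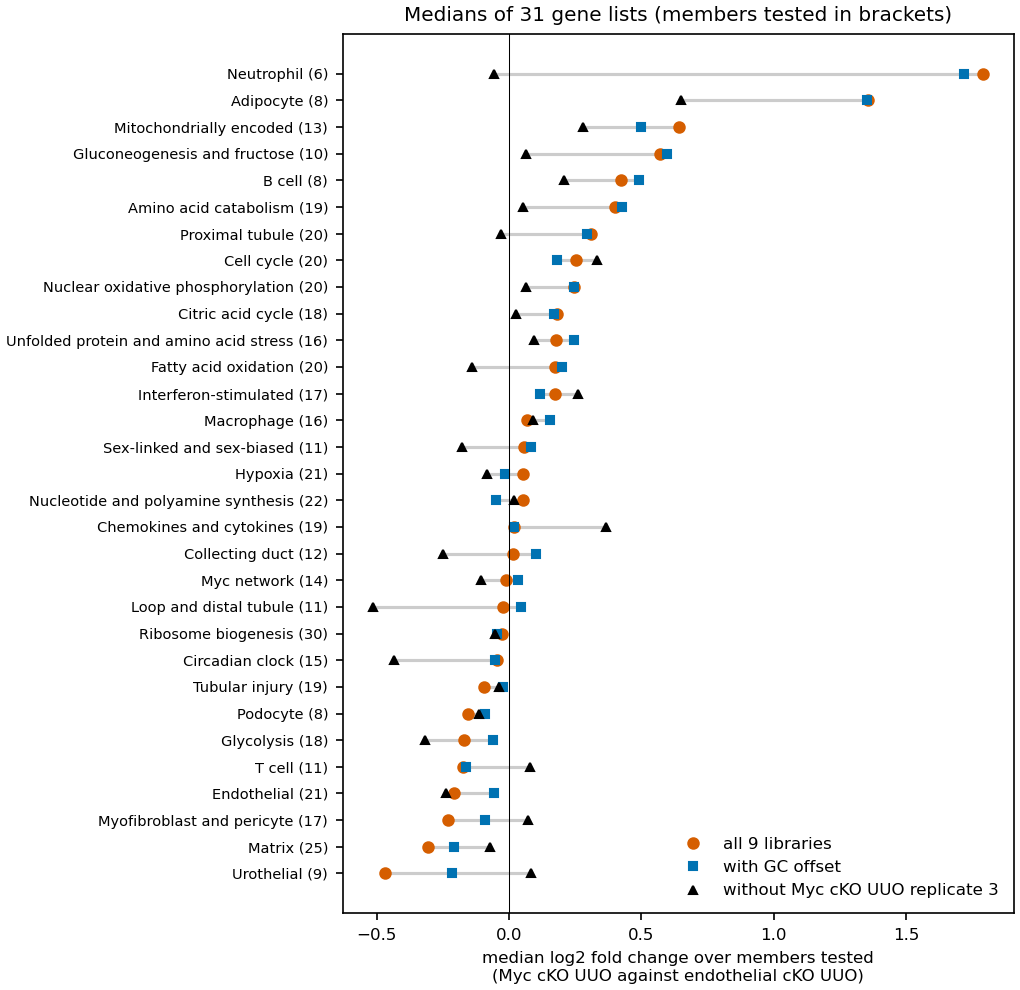
Median log2 fold change over the members tested (x) for 31 gene lists (y, members in brackets), Myc cKO UUO against endothelial cKO UUO, from all 9 libraries (circles), with the GC offset (squares) and without Myc cKO UUO replicate 3 (triangles). Leaving out replicate 3 moves the neutrophil median from 1.79 to -0.06 and the proximal tubule median from 0.31 to -0.03.

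Set against each endothelial line alone, the Myc knockouts gave 630 calls against Twist (2.99%; 93 higher, 0.442%, and 537 lower, 2.55%) and 515 against Snail (2.45%; 110 higher, 0.523%, and 405 lower, 1.92%). These 2 comparisons share the 3 Myc libraries. With the GC offset the counts were 18 (0.0855%; 7 higher, 0.0333%, and 11 lower, 0.0523%) and 50 (0.238%; 23 higher, 0.109%, and 27 lower, 0.128%), so the share called higher went from 14.8% to 38.9% against Twist and from 21.4% to 46.0% against Snail. In fits of the 6 libraries compared alone the counts were 15 and 16. Leaving out 1 library took them as low as 194 (without Twist cKO UUO replicate 3) and 57 (without Snail cKO UUO replicate 1). The Twist and Snail knockouts differed from each other in 36 genes (0.171%), and 34 with the offset (0.162%). The strain mix is the same on the labels for the Snail and Myc lines and different for the Twist line, and named genes can be set side by side. Against Twist and Snail, in that order, the log2 fold changes were -1.74 and -2.22 for Il3ra, -1.09 and -1.41 for Atp9a and 1.34 and 1.13 for Acp1, each called in both. Against WT UUO the Myc knockouts gave 2572 calls (12.2%), and 1814 with the offset (8.62%).

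Genes near a floxed gene are inherited with it, so calls were also counted by position. Within 20 Mb of Myc on chromosome 15, 22 of 312 tested genes were called (7.05%, beside 5.08% overall), and 0 with the GC offset. The share was 2.47% within 10 Mb and 6.43% within 40 Mb. Around Twist1 on chromosome 12 the share was 2.82% (4 of 142), and around Snai1 on chromosome 2 it was 3.81% (18 of 472). Against the Twist knockouts alone 12 of the 142 genes around Twist1 were called (8.45%, beside 2.99% overall), with 3.85% within 10 Mb and 4.5% within 40 Mb.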

How the data were processed

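Whole-kidney RNA was sequenced as stranded whole-transcriptome libraries (2 reads of 75 bases, NextSeq500), per the labels. The deposited table held raw counts per gene symbol (31787 symbols), made by the authors; bcl2fastq 1.8.4, HTSeq, DESeq2 and mm10 are in the submitters' processing notes, and which aligner, annotation or strand setting was used is not given in these sources. Without the strand setting, genes that overlap on opposite strands cannot be told apart. Of 24 columns, 18 matched a sample by name and 6 matched none and were not used.

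Genes kept by filterByExpr (21050) were scaled by TMM and tested in R 4.3.3 with edgeR 4.0.16 (robust quasi-likelihood, two-sided, Benjamini-Hochberg over all genes) in 1 fit of 18 libraries with 5 group means, Twist and Snail sharing one. Separate comparisons used 6 means. CPM values are TMM-scaled. Positions and the GC content of the longest transcript came from GENCODE M21 (97.0% of symbols placed). The GC offset is a natural spline with 5 degrees of freedom per library, fitted on genes with a mean of at least 1 CPM; genes without a GC value got none. The steps were tested on simulated counts. No pair of libraries in a group agreed within counting noise.

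Named genes are the targets and Cre drivers, the 12 largest changes each way (called, average log2 CPM 1 or more, no overlap, no predicted, pseudogene or receptor-segment name), up to 3 members per list by p, and Vegfa, Hif1a, Col1a1, Acta2 and Havcr1; others were chosen after their values were seen, and 2 genes under the rule are not reported here. The 31 lists begin with Myc network, ribosome biogenesis, nucleotide and polyamine synthesis, glycolysis, gluconeogenesis, fatty acid oxidation and citric acid cycle. Next come nuclear and mitochondrially encoded respiratory genes, amino acid catabolism, proximal tubule, loop and distal tubule, collecting duct, podocytes and tubular injury. The rest are urothelium, endothelium, matrix, myofibroblasts, 4 immune types, chemokines, interferon, cell cycle, hypoxia, stress, clock, adipocytes and sex-biased genes. The members and lists were chosen with earlier results of these data known. Alternatives were RLE scaling, other filters, DESeq2 1.42.0, limma 3.58.1 voom, a 2-fold minimum, only the compared libraries, sex as a covariate, no mt-Rnr1 and mt-Rnr2, separate endothelial means and each library left out; added after the data were seen were the GC offset, alone and with length, sex or a left-out library.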

Additional observations from a re-analysis of the deposited data

Results flagged for a closer look

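Among the 6 endothelial knockout libraries, 1 stood far from the other 5 for Eif3s6-ps2: Snail cKO UUO replicate 1 was at 0.0838 CPM, the next library was at 0.0146 CPM and the lowest at 0. Chance alone marks about 1 group in 20 by this gap measure, and of 85 groups measured 1 was marked. The 6 libraries held 10 counts of this gene in all, so the gap rests on few counts.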

How the results depend on the processing

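Of the pooled comparison's alternatives, RLE size factors (1059 calls), no count filter (792), a stricter filter (1307), limma voom (1223), the 9 compared libraries alone (785), a sex covariate (1285), separate Twist and Snail means (1064) and removal of mitochondrial ribosomal RNA (1072) left the count of 1070 within 1.5 times. A 2-fold minimum gave 4 calls for the pooled comparison, 6 for Myc against Twist, 12 for Myc against Snail and 12 for Twist against Snail. DESeq2 gave 1933, 1582, 1393 and 152 calls in that order. The GC offset, added after seeing the data, gave 29, 18 and 50 calls for the 3 Myc comparisons. A GC and length offset gave 25 calls (10 higher and 15 lower) and a GC offset with a sex covariate gave 43. Fits of the compared libraries alone gave 15, 16 and 56 calls for Myc against Twist, Myc against Snail and Twist against Snail, with fewer samples for the spread.

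Leaving out each replicate in turn gave 452 to 1058 calls in the pooled comparison (with the GC offset 34, 9 and 7 without Myc replicates 1, 2 and 3, 11, 23 and 9 without Snail replicates 1, 2 and 3, and 21, 11 and 21 without Twist replicates 1, 2 and 3), 194 to 515 for Myc against Twist, 57 to 691 for Myc against Snail and 14 to 25 for Twist against Snail. Within 10 Mb the percent called was 2.47 around Myc and 1.8 around Snai1. With the GC offset, 21 of the 1070 called genes turned sign. Among the 83 genes traced, the sign of the log2 fold change turned in 8, none of them called. With the GC offset it was 0.027 for Ggt1 and -0.067 for Hif1a, with GC and length -0.029 and with GC and sex -0.038 for Hif1a, and by voom -0.10 for Acta2. Over the fits that left out a replicate it ran from -0.14 to 0.31 for Twist1, -0.51 to 0.020 for Ggt1, -0.13 to 0.91 for Ppara, -0.10 to 0.17 for Vegfa, -0.013 to 0.17 for Hif1a, -0.87 to 0.60 for Acta2, -0.52 to 0.32 for Havcr1 and -0.20 to 0.15 for Trim30a. Of the 83 genes traced, RLE size factors changed no call, the GC offset ended 35 and leaving out Myc replicate 3 ended 24; the cause was not tested.

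No paired analysis was possible because the labels carry no replicate numbers; the numbers used here only name libraries, in record order, and pair none.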

Other observations

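Of the genes that the naming rule left out as predicted genes or pseudogenes and that were called with and without the GC offset, 3 outside the chromosome 7 stretch are described here, chosen after their values were seen. Gm26917, a long non-coding RNA gene at chr17:39843013-39846341 in GRCm38, was at 180, 177 and 154 CPM in the Myc knockouts and at 552 to 1092 in the endothelial knockouts (log2 fold change -2.17 ± 0.26, adjusted p = 0.00115, and 0.00612 with the offset). In RefSeq it lies next to Rn18s-rs5, a pseudogene of 18S ribosomal RNA. WT UUO kidneys held 581 to 846 CPM and contralateral ones 732 to 986, while the healthy kidneys were low as well, at 178 to 410. The healthy kidneys and the Myc knockouts were also the libraries with the steepest fall of counts toward GC-rich genes, and Gm26917 has a GC content of 69.1%.

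Eif3s6-ps2, a processed pseudogene on chromosome 18 named for a translation initiation factor subunit, gave 448 counts in the 3 Myc knockouts and 10 in the 6 endothelial knockouts. That is 2.61, 1.22 and 2.40 CPM against at most 0.0838, a 95.4-fold higher summed level (95% exact counting interval 51.4 to 200.3; edgeR adjusted p = 0.00115, and 0.00396 with the offset). All 15 libraries outside the Myc line were at or under 0.124 CPM. Gm14584, a processed pseudogene on the X chromosome, was at 2.00, 1.34 and 1.15 CPM against 0.0782 to 0.234 (adjusted p = 0.00167, and 0.0104 with the offset), and contralateral replicate 1 was at 1.30. Processed pseudogenes share sequence with their parent genes, so their counts are uncertain.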
